A study of Homo sapiens with 2 samples.

Results

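The transcription factors that set intestinal epithelial identity, CDX1, CDX2, HNF4A, GATA4, GATA6, KLF4, KLF5 and ELF3, were examined in the human cell line SW480, which was established from a colorectal adenocarcinoma. They were chosen by gene symbol, as all probe sets whose only symbol in the platform annotation is 1 of these 8 names. Probe sets with several symbols were left out. Of the 8 genes 7 were found, with 1 probe set each, among 18417 genes on the array. No probe set carried the symbol HNF4A alone, and the expression of HNF4A was not analysed here.

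RNA came from stable SW480 transfectants carrying the pTarget expression plasmid, either with the coding sequence of TFAP2E (TFAP2E overexpression) or without it (empty vector). Both cell populations had been kept under Geneticin for some weeks, single clones had been picked, and clones had been tested for TFAP2E. Each group has 1 array, and the labels do not say how many clones an array represents, so that differences between clones and an effect of TFAP2E cannot be told apart. With no replicate there is no test, error or p-value for any value below, and the number of arrays limits the precision.

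The protein made from TFAP2E, AP-2 epsilon, is one of the AP-2 transcription factors. CDX1 and CDX2 are caudal-type homeobox proteins, and CDX2 directs the intestinal programme in the gut endoderm and maintains it in the adult epithelium. HNF4A is a nuclear receptor of enterocytes and hepatocytes that shares many of its intestinal binding sites with CDX2. GATA4 and GATA6 are zinc finger factors of the endoderm, GATA4 mainly of the proximal small intestine and GATA6 of the whole gut including the colon. KLF4 is found in differentiated cells and goblet cells and KLF5 in the dividing crypt cells, and ELF3 is an epithelial ETS factor.

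AP-2 proteins bind GC-rich palindromes of the form GCCNNNGGC, and RefSeq promoter sequences (GRCh38.p14) were searched for these letters to show what the promoters of the factors hold. The pattern reads the same on both strands, and overlapping matches were counted separately. Windows ran from 250 bases before to 50 bases after a gene start. Of the 8 factors 6 had a window in the RefSeq table, and KLF5 and HNF4A had more than 1. The pattern was present in 3 of the 8 windows of these factors, those of KLF4, CDX2 and GATA6, compared with 23.2% of all 35116 windows. In the part before the start it was present in 1 of the 8, compared with 19.8%. The KLF4 window held 1 match, from base -10 to -2 relative to the start, and CDX2 held 3 matches and GATA6 1, all of them after the start. Windows with at least 3 matches made up 1.20% of the total. GC content was 69.0% for KLF4, 66.7% for GATA6 and 50.3% for CDX2, against a median of 58.7% over all windows. The sequences below show the 250 bases before the KLF4 start and the matched sites of CDX2 and GATA6 with their flanks, each 5′ to 3′ on the gene's strand, with the matched letters in capitals.
KLF4, chr9:107489770-107490019, minus strand: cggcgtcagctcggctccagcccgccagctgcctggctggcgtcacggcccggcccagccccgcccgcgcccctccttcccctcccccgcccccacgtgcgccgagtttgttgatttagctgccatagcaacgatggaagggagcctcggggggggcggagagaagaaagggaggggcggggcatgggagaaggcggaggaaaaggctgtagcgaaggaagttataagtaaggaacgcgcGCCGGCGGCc
CDX2, first site, chr13:27969286-27969307, minus strand: aagGCCGCCGGCCTGGGGCtcc
CDX2, second site, chr13:27969266-27969280, minus strand: ccaGCCTGTGGCggg
GATA6, chr18:22169608-22169622, plus strand: ggcGCCCTCGGCttc
The first CDX2 site holds 2 matches that overlap. A match describes the letters in the window, and binding of AP-2 epsilon was not measured here.

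Values are log2 expression values made by the authors with RMA, which corrects background, brings the arrays to a common distribution and summarises the probes of a set. A gene was called measured when its higher value was at or above 5.55, the middle of all deposited values, and dim otherwise. This value is a reference point and not a detection limit. Of 18417 genes 11548 were measured. Differences are the TFAP2E array minus the empty vector array on the log2 scale. Over the measured genes their median was 0.045, 59.2% were above 0 and 39.5% below it, and 95% lay between -0.37 and 0.47. The shares above and below 0 are the background for every count of higher and lower measured genes given below. The TFAP2E probe set itself read 6.81 on the TFAP2E array and 6.77 on the empty vector array, so that the values do not show the introduced gene and every direction rests on the labels. No source used here tells where in the transcript its probes lie.

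The 7 factors read nearly the same on both arrays. None reached 1.5-fold in either direction, where 0.892% of all measured genes were at least 1.5-fold higher and 0.606% at least 1.5-fold lower. The same shares apply to every count at 1.5-fold given below. None reached a log2 difference of 0.32 either, which 7.90% of measured genes passed upward and 3.80% downward. With 6 of 7 factors measured and 1 dim, 2 of the measured factors were higher on the TFAP2E array (GATA6 and CDX1) and 4 lower (KLF4, KLF5, CDX2 and ELF3), with a median of -0.09 against 0.045 for all measured genes. ELF3 counts as measured through the empty vector array alone, the one where it was higher. All 7 differences lay inside the range that held 95% of genes. Because probes differ in their response, levels were not compared between genes.

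**Figure D1:**
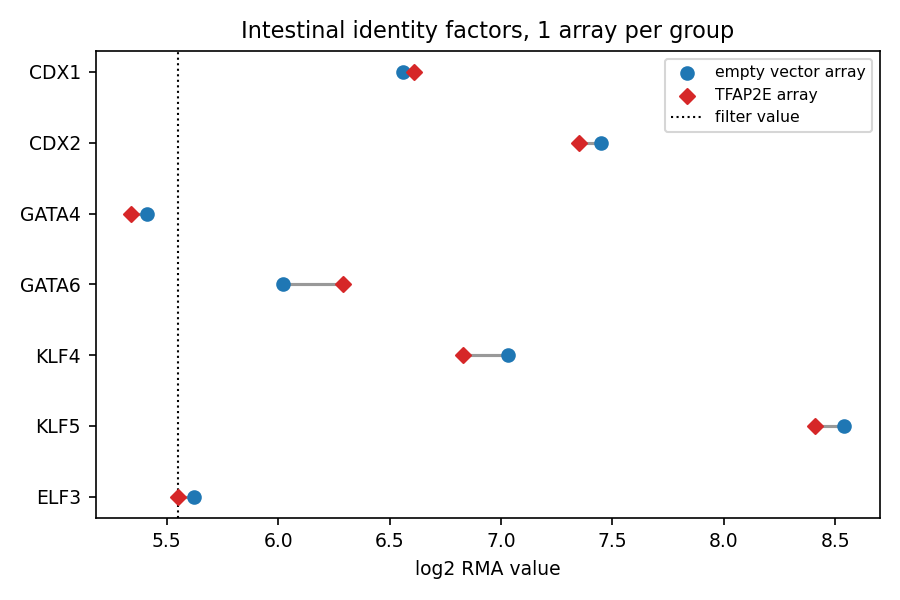
Log2 RMA value of each factor on the empty vector array (blue circles) and the TFAP2E array (red diamonds), with the filter value of 5.55 as a dotted line. Each pair lies close together, GATA4 lies left of the line on both arrays, and GATA6 shows the widest gap, at 6.29 against 6.02.

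CDX2 read 7.35 on the TFAP2E array and 7.45 on the empty vector array and was thus 1.07-fold lower (-0.10). Both values lay well above the filter, the higher one by 1.90 log2 units. CDX1, the paralog that acts in crypts and is a target of Wnt signalling, read 6.61 and 6.56, a difference of 0.06. Over all measured genes the median difference was 0.045. The only other caudal factor, CDX4, was dim on both arrays, at 3.86 and 4.12.

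GATA6 had the largest difference of the 7 factors. It read 6.29 on the TFAP2E array and 6.02 on the empty vector array, 1.21-fold higher (log2 difference 0.28). Of the 11548 measured genes 1337 had a higher difference, and 16.9% differed by at least as much in one or the other direction. Among the 1000 measured genes of most similar level, 95% of differences lay between -0.36 and 0.52, a range that includes GATA6. GATA4 was dim, at 5.34 with TFAP2E and 5.41 with the empty vector. It missed the filter by 0.14.

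The other GATA factors did not share 1 direction. GATA5, the third GATA factor of the endoderm, read 6.89 against 6.68 (0.21), and GATA1, an erythroid factor, 5.78 against 5.67 (0.11). GATA2, a factor of blood progenitors and endothelium, was lower, at 7.46 against 7.64 (-0.19). GATA3 was dim on both arrays at 5.54 and 5.39, as was HNF4G, the paralog of HNF4A, at 3.84 and 3.75. None of these relatives reached 1.5-fold.

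KLF4 was the lowest of the 7 factors by its difference. It read 6.83 on the TFAP2E array and 7.03 on the empty vector array, 1.15-fold lower (log2 difference -0.20), and 1121 of 11548 genes had a lower difference. KLF5 read 8.41 and 8.54, 1.09-fold lower (-0.12). Both factors were above the filter on both arrays, and both were lower on the TFAP2E array.

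Of 15 other Krüppel-like factors on the array 13 were measured, with 7 higher, 5 lower and KLF12 at the same value on both arrays. Their median was 0.02, and -0.008 once a loess trend was removed and -0.001 after quantile normalization. KLF7 had the lowest difference, at 6.44 against 6.83 (-0.39, 1.31-fold lower), followed by the endothelial and lymphoid factor KLF2 at 7.49 against 7.70 (-0.21). The highest were KLF15, at 5.74 against 5.54 (0.20), which was dim on the empty vector array, and the TGF-beta inducible factor KLF11, at 6.98 against 6.84 (0.14). None of the 13 passed 1.5-fold. KLF8 and KLF17 were dim.

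ELF3 stood at the filter. Its value was 5.545 on the TFAP2E array, just under the filter value of 5.549, and 5.618 with the empty vector (log2 difference -0.07). It therefore counts as measured through the empty vector array alone. Its epithelial relative EHF read 6.26 against 5.90, 1.28-fold higher (0.36). The widely expressed ELF1 read 9.54 against 9.61 (-0.07), ELF2 6.27 against 6.25 (0.02) and ELF4 6.96 against 6.90 (0.05). The mammary and secretory epithelial factor ELF5 was dim, and so was SPDEF, a factor of goblet cell maturation, at 5.51 and 5.33.

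**Figure D2:**
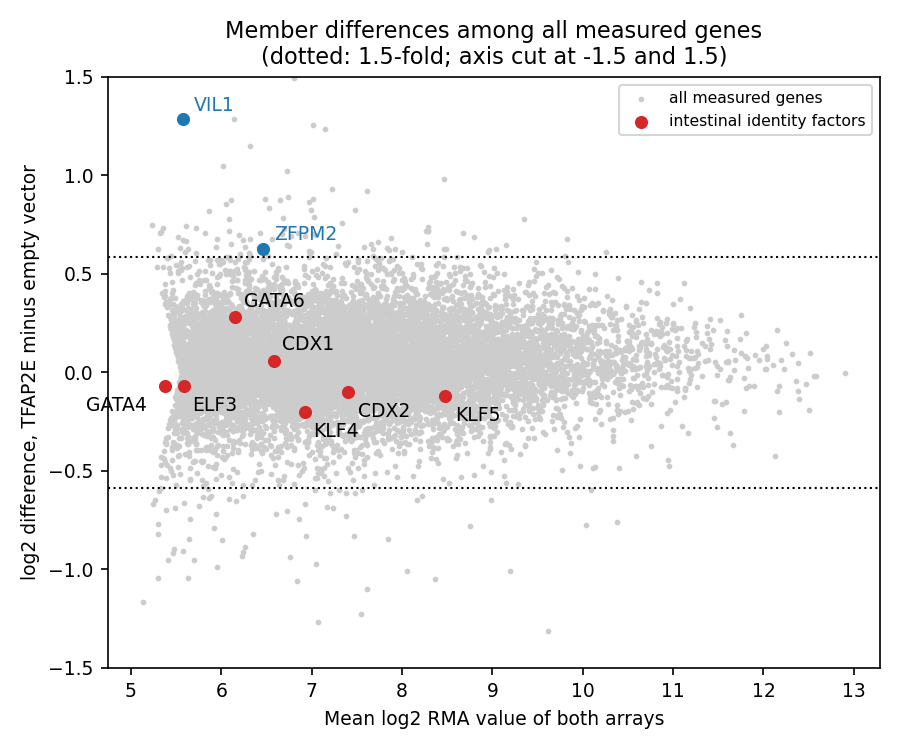
Difference (log2, TFAP2E array minus empty vector array) against mean log2 value for all 11548 measured genes (grey) with the 7 factors in red and VIL1 and ZFPM2 in blue; dotted lines mark 1.5-fold and the axis ends at -1.5 and 1.5. The factors lie between -0.20 and 0.28, inside the grey cloud (GATA4, at the left edge, is dim), while VIL1 at 1.28 and ZFPM2 at 0.63 lie above the upper line.

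Other factors of the intestinal and endodermal programme lay on both sides of 0. Of 20 on the array 13 were measured, 4 higher and 9 lower, where 59.2% of all measured genes were higher and 39.5% lower. The median of the 13 was -0.07, against 0.045 for all measured genes. None of the 13 passed 1.5-fold, which 0.892% of all measured genes reached upward and 0.606% downward. The lowest was PRDM1, a transcriptional repressor found in the fetal intestinal epithelium, at 6.57 against 6.78 (-0.21). SOX9, a factor of crypt progenitors and Paneth cells, followed at 8.35 against 8.52 (-0.17). CREB3L3, a membrane-bound factor of liver and intestine, was highest at 5.82 against 5.52 (0.30), with its lower value dim, and the endodermal pioneer factor FOXA2 followed at 6.12 against 5.94 (0.18). ISX, ATOH1, NR5A2, FOXA1, MAF, ID1 and ID3 were dim. Counting the 7 factors, their relatives and these factors together, 39 of 54 were measured, 18 higher, 20 lower and 1 equal, between -0.39 and 0.36.

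Among proteins that bind or modify the factors, ZFPM2 stood out by size. ZFPM2 (FOG2), a zinc finger cofactor that binds GATA proteins, read 6.78 on the TFAP2E array and 6.15 on the empty vector array, 1.54-fold higher (log2 difference 0.63). Both values were above the filter. Over all genes, 0.892% of those measured were at least 1.5-fold higher. The neighbours of ZFPM2 along its chromosome were not compared, so a difference shared with them was not tested. Its paralog ZFPM1 (FOG1) read 6.50 and 6.55 (-0.05). ZFPM2 was thus the 1 gene of the 12 measured cofactors and regulators past 1.5-fold. The list had 5 higher and 7 lower genes and a median of -0.03.

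Both ubiquitin ligase genes of KLF5 in that list lay inside the range of genes of like level, on opposite sides of 0. Of the 1000 measured genes most similar in level, 95% lay between -0.33 and 0.43 for WWP1. For FBXW7 this range was -0.42 to 0.45. WWP1, a HECT ligase that targets KLF5 for degradation, read 9.09 against 8.80 (0.29). FBXW7, the substrate receptor of an SCF ligase that also acts on KLF5, read 5.69 against 5.99 (-0.30). The acetyltransferase CREBBP was next lowest, at 8.10 against 8.37 (-0.27). PPARGC1A, a coactivator of HNF4A, and NR0B2 (SHP), a repressor of it, were dim on both arrays.

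Genes of the intestinal epithelium linked to CDX2 were mostly dim on both arrays. Of 24 on the array 21 were dim, among them the adhesion molecule CDH17 (3.27 and 3.44), the guanylin receptor GUCY2C (3.12 on each), sucrase-isomaltase SI (2.98 and 2.96), the goblet cell mucin MUC2 (5.19 and 5.29) and keratin KRT20 (4.26 and 4.29). The 3 measured genes were all higher on the TFAP2E array, as were 59.2% of all measured genes. Villin (VIL1), the actin-bundling protein of microvilli, read 6.22 against 4.94, 2.43-fold higher (1.28). Its empty vector value was dim, so that VIL1 passed the filter through the TFAP2E array alone, and counted from the filter value it was 1.59-fold higher. Intestinal alkaline phosphatase ALPI read 5.94 against 5.69 (0.25) and galectin LGALS4 5.83 against 5.61 (0.22). Of the dim genes of the list 8 were higher and 12 lower, and with them included the list's median was -0.002. A further gene of that list, named after its values were seen, was the membrane mucin MUC13, at 5.49 with TFAP2E and 3.85 with the empty vector. It fell just short of the filter on the higher array and was the 1 dim gene of the list with a difference past 1.5-fold (1.64).

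No measured gene linked to HNF4A, GATA or ELF3 reached 1.5-fold. Over all measured genes 0.892% were at least 1.5-fold higher and 0.606% at least 1.5-fold lower, so that short lists would mostly hold none. Of 16 HNF4A-linked genes on the array 5 were measured (median 0.02, 4 higher and 1 lower). The protease inhibitor SERPINA1 read 8.22 and 8.20 (0.02) and the apolipoprotein APOA1 5.71 and 5.67 (0.04). The epithelial membrane-cytoskeleton protein gene EPB41L4B read 5.78 and 5.76 (0.02). Coagulation factor F7 read 5.49 and 5.66 (-0.18), with its lower value dim. The fifth, CREB3L3, is described above. The apolipoprotein genes APOB, APOC3 and APOA4 were dim.

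Of 11 GATA-linked gut genes 5 were measured (3 higher, 2 lower, median 0.08). The endocytic adaptor DAB2 was highest at 5.67 against 5.41 (0.26) and the ileal bile acid binding protein FABP6 lowest at 5.88 against 6.05 (-0.17). TFF2 (0.21) and TFF1 (-0.06) are trefoil peptides of the stomach. DAB2 and TFF2 were dim on the empty vector array, so that both passed the filter through the TFAP2E array alone. With the filter on the mean of both arrays, the median of the GATA-linked list was -0.056. The homeobox factor HHEX read 7.90 and 7.82 (0.08). Of 9 ELF3-linked genes 6 were measured, 4 lower and 2 higher (median -0.15). They included keratin KRT8 at 12.07 against 12.28 (-0.20), the junction protein CLDN7 at 9.32 against 9.50 (-0.18) and the TGF-beta receptor TGFBR2 at 7.10 against 7.25 (-0.16). The highest were the cytokine subunit IL23A at 7.44 against 7.07 (0.37) and keratin KRT4 at 0.11.

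Genes linked to KLF4 and KLF5 lay on both sides of 0. Of 19 on the array 17 were measured, 10 higher and 7 lower (median 0.06, none past 1.5-fold). The EGF receptor gene EGFR was highest at 7.99 against 7.48 (0.52), and the polyamine enzyme ODC1, which KLF4 is known to repress, read 11.34 against 11.02 (0.33). The squamous envelope gene IVL was lowest at 5.42 against 5.90 (-0.49), with the lower value dim, followed by keratin KRT13 at 7.26 against 7.70 (-0.43). The growth factor PDGFA, a known KLF5 target, read 9.01 against 9.40 (-0.39). Cyclin D1 (CCND1), which KLF5 activates and KLF4 represses, read 11.33 against 11.56 (-0.23). The cell cycle inhibitor CDKN1A, which KLF4 activates, differed by 0.11.

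Stomach and foregut genes, whose expression CDX2 restrains in the gut, were mostly dim as well. Of 17 on the array 10 were dim, among them SOX2 at 5.32 and 5.29. Among the 7 measured genes, 2 were higher and 5 lower (median -0.06). The prostate stem cell antigen PSCA, a gastric surface protein, was lowest at 5.58 against 5.89 (-0.31), and BARX1, a stomach mesenchyme homeobox factor, read 6.53 against 6.69 (-0.16). The homeobox factor IRX3 was highest at 6.81 against 6.55 (0.26), followed by TFF2 (0.21), which was dim on the empty vector array.

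**Figure D3:**
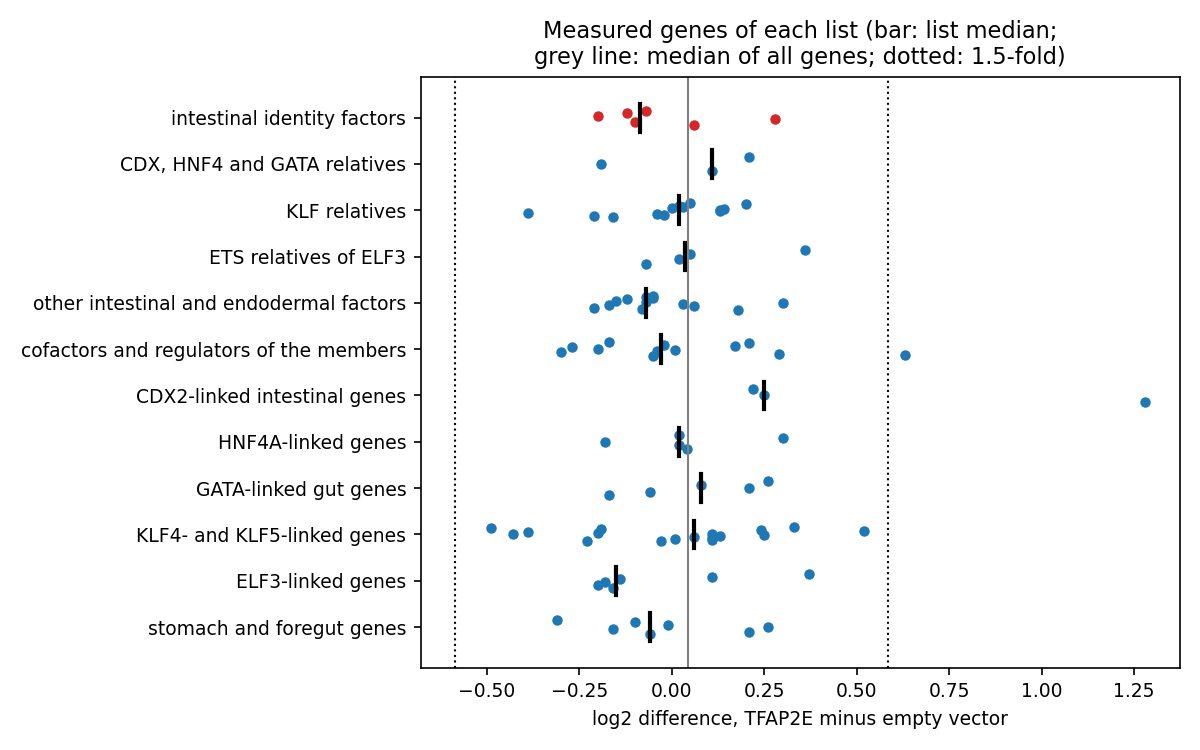
Difference (log2, TFAP2E array minus empty vector array) of every measured gene among the factors, their relatives, their cofactors, the linked genes and the stomach genes, 1 point per gene and list, without the cell type markers; black bars are list medians, the grey line is the median of all measured genes (0.045) and dotted lines mark 1.5-fold. Apart from ZFPM2 at 0.63 and VIL1 at 1.28, the points lie between the dotted lines.

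The neighbours of each factor along its chromosome were compared with the factor itself, using the 10 nearest measured genes on each side in RefSeq gene order. GATA6 read 0.28 and its neighbours had a median of 0.07. Of these 20 neighbours 13 were higher and 7 lower, where 59.2% of all measured genes were higher and 39.5% lower. On 1 side, TTC39C and CABYR (0.33 each), IMPACT (0.28) and OSBPL1A (0.27) read about as high as GATA6. KLF4 read -0.20 next to a median of -0.07, with 12 of 20 lower. KLF5 (-0.12) lay opposite in sign to the median of its neighbours (0.10), as did ELF3 (-0.07 against 0.08) and the dim GATA4 (-0.07 against 0.08). CDX1 (0.06 against 0.07) lay next to the median of its neighbours, and CDX2 read -0.10 where theirs was -0.02. The differences of all 7 factors fell inside the range of their neighbours. No such comparison was made for the other genes named, among them ZFPM2, WWP1 and EGFR.

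**Figure D4:**
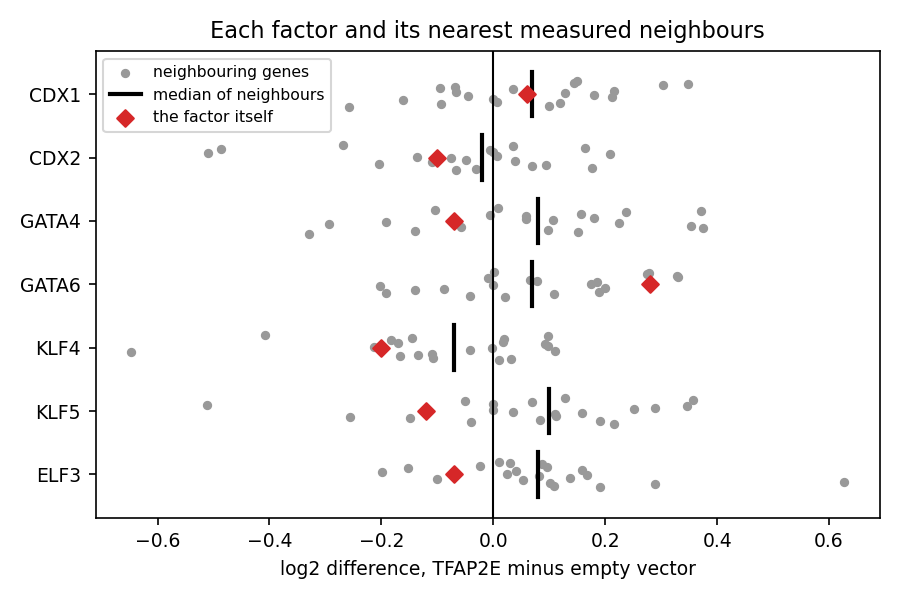
Difference (log2, TFAP2E array minus empty vector array) of each factor (red diamond), of its 20 nearest measured neighbours (grey points) and the median of the neighbours (black bar). Every factor lies within the spread of its neighbours, and KLF5, ELF3 and GATA4 lie on the other side of 0 from the neighbours' median.

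Marker genes of the colon epithelium and of other cell types were each read against the filter value. Of 12 colon epithelial markers 10 were measured, 4 higher and 6 lower, and KRT20 and CDH17 were dim on both arrays. E-cadherin (CDH1) was the 1 marker at least 1.5-fold lower, a size that 0.606% of all measured genes reached downward, at 6.38 against 7.08 (-0.71, 1.63-fold). Villin (VIL1, 1.28), described above, was the 1 marker past 1.5-fold upward. After these, the keratins KRT8 and KRT19 were lowest, at -0.20 each, and LGALS4 highest, at 0.22. The adhesion molecule EPCAM read 11.14 and 11.20 (-0.06), and the junction proteins CLDN3 and CLDN4 differed by 0.09 and 0.05. The mean log2 value of the 12 markers was 8.08 on the TFAP2E array and 8.07 on the empty vector array, and without VIL1, a choice made after the values were seen, it was 8.24 and 8.35.

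Markers of other cell types were mostly dim. Of those on the array 3 of 10 for fibroblasts, 2 of 7 for endothelium and 3 of 9 for leukocytes were measured, none of them past 1.5-fold, and the defining genes DCN, PECAM1 and PTPRC were dim on both arrays. The mean log2 values of these lists were 4.64 against 4.65, 4.64 against 4.62 and 4.58 against 4.49. The fibroblast markers were the contractile actin ACTA2 (0.33) and the collagens COL1A1 (0.05) and COL1A2 (-0.09). COL1A2 was dim on the TFAP2E array. The endothelial ones were ENG (0.00) and CLDN5 (-0.13). Among leukocyte markers CD68, a lysosomal glycoprotein of macrophages, read 6.60 against 6.02 (0.57), with NKG7 at 0.18 and CD14 at -0.19. CD14 was dim on the TFAP2E array.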

How the data were processed

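The authors deposited 1 log2 value per probe set for each of 2 arrays, computed with RMA as the submitters' processing notes state. For the software version and genome build, the sources used here give nothing. Of 33297 probe sets 19460 had exactly 1 symbol in the platform annotation, 1754 had several and 12083 had none. Current symbols came from a RefSeq table matched by Entrez identifier (GRCh38.p14), where 19429 were found. For the 769 genes with several probe sets, the set with the highest mean was used. No further scaling was applied. Tables were made with Python 3.11.15, pandas 2.3.3 and numpy 2.4.6, and the loess alternative with statsmodels 0.14.6. The steps that scale the arrays and give each gene its value and difference were tested on simulated data. The neighbour, promoter and list summaries were not tested in this way.

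The rule of size was 1.5-fold. Named genes are the 8 factors, TFAP2E, the 2 highest and 2 lowest measured genes of each list, every measured gene past 1.5-fold and all measured genes of lists with at most 6 members on the array. Other genes named serve as examples chosen after their values were seen. The members and lists were chosen with earlier results of these data known, and the linked-gene lists rest on textbook knowledge. No gene was named for likeness of pattern, since over 2 arrays any pair correlates at 1 or -1. Alternatives were 3 scalings, 3 filters, the mean of probe sets, a floor and 2 other thresholds.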

Additional observations from a re-analysis of the deposited data

How the results depend on the processing

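The 6 measured factors kept the sign of their difference under each of the 3 scalings. The filters, the probe set rule and the floor could not show more. Each factor has 1 probe set, and its difference was the same wherever these alternatives kept it. GATA6 ranged from 0.26 to 0.30, KLF4 from -0.23 to -0.18, KLF5 from -0.17 to -0.10, CDX2 from -0.14 to -0.08, ELF3 from -0.08 to -0.05 and CDX1 from 0.03 to 0.08. None of them passed 1.5-fold or 2-fold, or a log2 difference of 0.32. The filter at the 75th percentile left only CDX2 and KLF5. The median of all genes ran from 0.01 without the loess trend to 0.07 with centring. Medians of 2 lists moved by more than 0.219, the standard deviation of all differences. The median of the CDX, HNF4 and GATA relatives was -0.19 at the 75th percentile filter, where fewer genes were left, and that of the CDX2-linked genes -0.002 with no filter, where the dim genes entered. In all, 7 list medians from 6 lists had the other sign under an alternative, these 2 included. ZFPM2 (0.60 to 0.65), VIL1 (1.28 to 1.31) and CDH1 (-0.73 to -0.68) stayed past 1.5-fold under each of the 3 scalings. The other alternatives either dropped these genes or left their differences unchanged. GATA4 had 1 value, -0.07, with no filter. With 2 arrays and no replicate, differences of the size seen for these factors cannot be separated from the spread between arrays. No paired analysis was possible because there is 1 array per group.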

Other observations

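KLF12 had the same deposited value on both arrays. So did 159 of the 11548 measured genes (1.38%) and 1379 of all 33297 probe sets (4.14%), to the last digit given.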
